A study of Sus scrofa with 19 samples.

Results

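PARP14, PARP12, GBP1, TRIM21, CMPK2 and LGALS9 are effector genes of the interferon response, and their adrenal expression was followed in 19 male piglets whose mothers had received lipopolysaccharide (LPS) or saline late in gestation. The 6 genes were chosen by their lower signal after maternal LPS in an earlier look at these same 19 arrays. Their values for maternal LPS against saline, over all diets and within each diet, are therefore given as a description with no test. They are 6 of the 12218 genes that carry a symbol of their own on the array. Each gene has 1 probe set, and all 6 probe sets passed the filter on low signals described here.

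Every piglet came from a different sow. The sows ate a fish oil, a microalgae or a control diet from gestation day 75 onward, and were given LPS or saline on gestation day 112. The piglets were weaned at 21 days, and at 28 days each piglet, in every group, received LPS itself and was killed 2 hours later, so no gland of an unchallenged piglet is part of the data. The fish oil diet has 4 piglets of LPS sows (labelled 10, 19, 20 and 24) and 4 of saline sows (9, 11, 13 and 18). The microalgae diet has 2 of LPS sows (7 and 23) and 3 of saline sows (12, 15 and 22). The control diet has 3 of LPS sows (6, 16 and 17) and 3 of saline sows (8, 14 and 21). LPS is the outer membrane component of Gram-negative bacteria and is used to provoke inflammation, while fish oil and microalgae both supply long-chain omega-3 fatty acids.

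Bacterial LPS is sensed by Toll-like receptor 4, which drives the secretion of type I interferon by macrophages and other cells. Interferon binds its receptor, the Janus kinases attached to it become active, and a large set of interferon-stimulated genes is switched on in the nucleus. The 6 genes belong to the end of that chain: ADP-ribosyltransferases, a GTPase, a ubiquitin ligase, a nucleotide kinase and a lectin. In the adrenal gland the response sits beside steroid synthesis in the cortex and catecholamine synthesis in the medulla.

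Each array reports log2 signals of a whole gland. Array medians lay between 4.38 and 4.52. The spread of the values differed between arrays, and 4 of the 5 arrays with the narrowest interquartile range came from piglets of LPS-challenged sows. Adrenal identity was clear from the cortical genes CYP17A1 (12.36 mean log2 signal), SCARB1 (11.41), CYP21A2 (11.22) and HSD3B1 (11.13) and from the medullary gene CHGB (10.80). In a whole gland, fewer cells of a type and less RNA per cell cannot be told apart. Signals of different probe sets are not on a common scale, so levels are compared within a gene only.

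PARP14 is a mono-ADP-ribosyltransferase with macrodomains that takes part in cytokine and interferon signalling. After maternal LPS on the fish oil diet its log2 signal was 8.72, 8.80, 7.51 and 8.92 in piglets 10, 19, 20 and 24, against 9.62, 9.36, 9.78 and 9.71 in piglets 9, 11, 13 and 18 after saline. The fish oil groups did not overlap, and piglet 20 stood well below the other LPS piglets. On the microalgae diet the signal was 9.48 and 8.62 after LPS (piglets 7 and 23), against 9.81, 9.61 and 9.14 after saline (12, 15 and 22). On the control diet it was 9.19, 9.25 and 9.03 after LPS (6, 16 and 17), against 9.21, 9.50 and 9.10 after saline (8, 14 and 21). The LPS and saline piglets overlapped in both of these diets. LPS minus saline was -1.13 ± 0.263 log2 on fish oil, -0.47 ± 0.340 on microalgae and -0.11 ± 0.304 on control, where ± is the standard error (SE) of the linear model over all 19 arrays. The fish oil difference corresponds to a 2.19-fold lower signal.

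PARP12, a mono-ADP-ribosyltransferase with zinc fingers that restrains the replication of several viruses, had fish oil values of 6.78, 6.87, 6.21 and 6.52 after LPS, against 7.72, 7.18, 7.46 and 7.79 after saline, with the piglets in the order given for PARP14. The lowest saline piglet lay above the highest LPS piglet. The microalgae values were 7.77 and 7.08 after LPS, against 7.32, 7.37 and 6.88 after saline. The control values were 7.18, 7.06 and 7.25 after LPS, against 7.37, 7.19 and 7.08 after saline. Piglet 7, of a sow fed microalgae, had a signal as high as the upper fish oil saline piglets. LPS minus saline was -0.94 ± 0.188 log2 on fish oil, 0.24 ± 0.242 on microalgae and -0.05 ± 0.217 on control. PARP12 was the only gene of the 6 with a higher mean after LPS on microalgae, and without piglet 7 that difference was -0.105.

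GBP1 is a large GTPase that assembles on intracellular bacteria and on LPS. It had the widest range of the 6, 2.90 log2 over the 19 piglets, and its within-group standard deviation (SD) of 0.642 was larger than that of 96.0% of all probe sets tested. Its fish oil values were 7.35, 7.12, 5.79 and 8.10 after LPS, against 8.23, 8.33, 8.52 and 8.49 after saline. Piglet 24 came within a small distance of the lowest saline piglet, while piglet 20 had the lowest signal of all 19. The microalgae values were 8.05 and 6.79 after LPS, against 8.69, 8.66 and 7.28 after saline. The control values were 7.52, 7.63 and 7.15 after LPS, against 8.10, 7.78 and 7.31 after saline. In both diets the groups overlapped, with 1 low saline piglet in each. LPS minus saline was -1.30 ± 0.401 log2 on fish oil (2.46-fold lower), -0.79 ± 0.518 on microalgae and -0.29 ± 0.463 on control. Without piglet 20 the fish oil difference was -0.868, and on microalgae it was -1.416 without piglet 7 and -0.157 without piglet 23.

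TRIM21 is a ubiquitin ligase and cytosolic antibody receptor that sends antibody-coated viruses to the proteasome. Its fish oil values were 6.09, 6.43, 5.50 and 6.72 after LPS, against 7.08, 6.82, 6.84 and 7.67 after saline. All 4 LPS piglets were below all 4 saline piglets, with piglet 24 closest to them. The microalgae values were 6.92 and 6.41 after LPS, against 7.29, 6.82 and 6.53 after saline. The control values were 6.39, 6.72 and 6.79 after LPS, against 7.10, 6.86 and 6.71 after saline. These groups overlapped. LPS minus saline was -0.91 ± 0.250 log2 on fish oil, -0.21 ± 0.322 on microalgae and -0.26 ± 0.288 on control.

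CMPK2, the mitochondrial kinase that phosphorylates UMP and CMP and so feeds mitochondrial DNA synthesis, separated the challenges most often. Its fish oil values were 8.01, 7.74, 7.03 and 7.54 after LPS, against 8.42, 8.38, 8.10 and 8.58 after saline. The microalgae values were 7.98 and 7.69 after LPS, against 8.72, 8.0 and 8.14 after saline. On the control diet they were 7.97, 7.92 and 7.62 after LPS, against 8.01, 8.0 and 8.13 after saline. Within every diet each LPS piglet lay below each saline piglet, although on the microalgae and control diets the gap between the nearest piglets was small. Across diets, 8 of the 9 LPS piglets were below all 10 saline piglets, and piglet 10 was the exception. The margin was small, with LPS piglets at 7.97 and 7.98 against a lowest saline value of 8.0. The share of all probe sets with this pooled pattern was not computed, and the gene was picked for this difference. Nothing is read from the count. LPS minus saline was -0.79 ± 0.197 log2 on fish oil, -0.45 ± 0.254 on microalgae and -0.21 ± 0.227 on control.

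LGALS9 encodes galectin-9, a secreted lectin that binds the inhibitory receptor TIM-3 on lymphocytes and myeloid cells. Its fish oil values were 6.67, 6.34, 5.90 and 6.06 after LPS, against 7.02, 6.89, 6.83 and 7.35 after saline. The groups did not overlap. The microalgae values were 6.59 and 6.01 after LPS, against 7.21, 6.53 and 6.49 after saline. The control values were 6.30, 6.69 and 7.11 after LPS, against 6.66, 6.40 and 6.45 after saline. On control, piglets 16 and 17 lay above every saline piglet and piglet 6 below, so LGALS9 alone had a higher mean after LPS there. LPS minus saline was -0.78 ± 0.217 log2 on fish oil, -0.44 ± 0.281 on microalgae and 0.19 ± 0.251 on control, and the control difference was -0.01 without piglet 17.

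**Figure D1:**
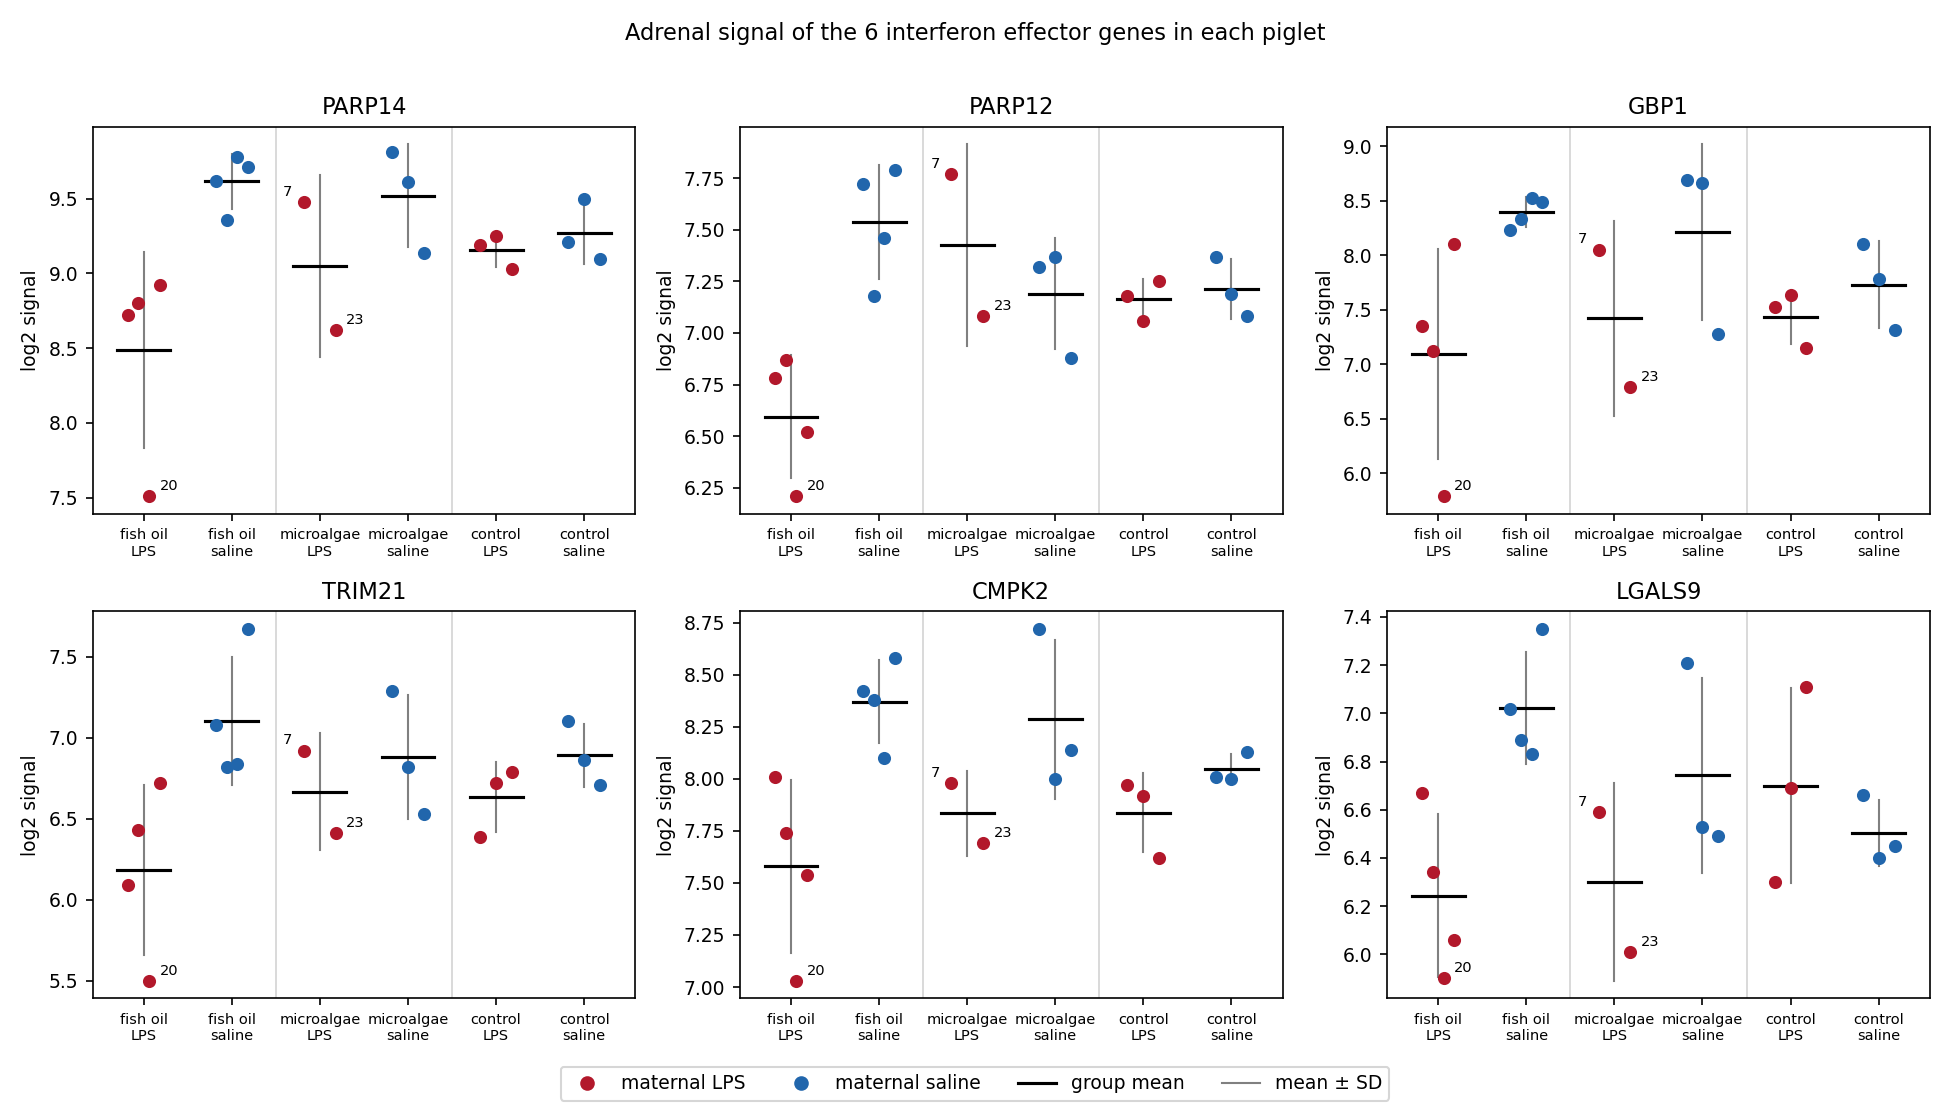
Log2 signal (vertical axis) of each of the 6 genes in each piglet, by maternal diet and challenge, with LPS left of saline. Points are piglets, of which only 7, 20 and 23 carry their label numbers, and bars give the group mean ± SD. On fish oil every LPS piglet lies below every saline piglet for all 6 genes, and piglet 20 is the lowest of the 19 in each panel.

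As a group, all 6 genes had a lower mean after maternal LPS over the 3 diets, where 48.2% of all 20668 probe sets tested were lower. Their median difference was -0.47 log2, while the median over all probe sets was 0.007. On fish oil 6 of 6 were lower (48.9% of all probe sets), with a median of -0.92. On microalgae 5 of 6 were lower (46.7% of all), with a median of -0.45, and on control 5 of 6 were lower (49.7% of all), with a median of -0.16. Since the genes were picked for this difference, the counts describe them and support nothing.

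The groups were fully separated, with every LPS piglet below every saline piglet, for 6 of 6 genes on fish oil, a pattern that 1.44% of all probe sets had. On microalgae only CMPK2 among the 6 was separated in that way (14.7% of all probe sets, with 2 LPS piglets), and on control again only CMPK2 (2.92% of all). Without piglet 20, the lowest of the fish oil LPS piglets, the fish oil differences lay between -0.868 for GBP1 and -0.606 for CMPK2, and were below 0 for all 6.

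**Figure D2:**
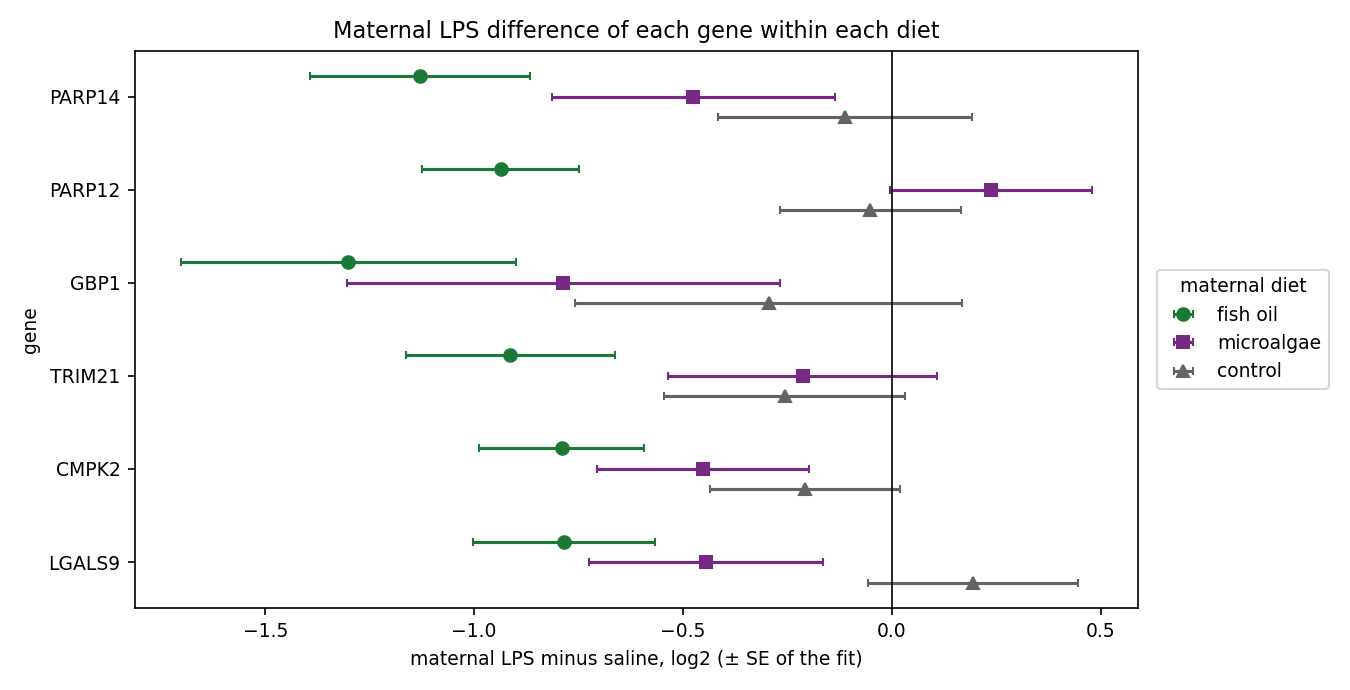
Maternal LPS minus saline for each gene (rows) within the fish oil, microalgae and control diets, on the log2 axis; points are differences of group means and bars are ± SE of the linear model. Fish oil differences run from -1.30 to -0.78, and those on control lie between -0.29 and 0.19.

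Both ends of the range of group means came from the fish oil diet. The fish oil LPS group had the lowest mean of the 6 groups and the fish oil saline group the highest, for every one of the 6 genes. GBP1 averaged 7.09 ± 0.962 log2 after LPS and 8.39 ± 0.135 after saline on fish oil (SD, n = 4 each). PARP14 averaged 8.49 ± 0.659 after LPS and 9.62 ± 0.183 after saline on that diet (SD, n = 4 each). By group medians the fish oil LPS group was again lowest for all 6, while for GBP1 the highest median belonged to the microalgae saline group. Almost all groups next to each other in the order of means overlapped in their piglets. The exceptions were control saline over control LPS for CMPK2, and control LPS over fish oil LPS for PARP12. For CMPK2, GBP1, PARP14 and TRIM21 the order of means put the 3 saline groups above the 3 LPS groups.

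**Figure D3:**
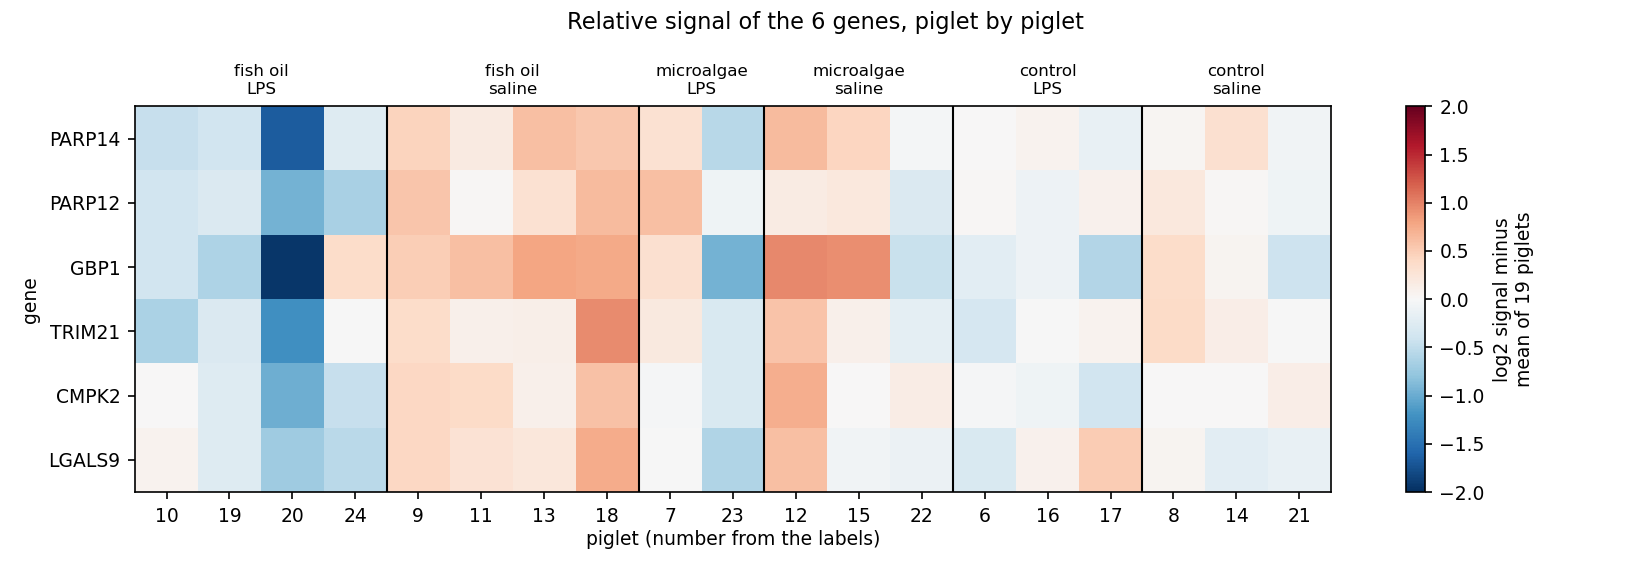
Deviation of each piglet's log2 signal from the gene's mean over the 19 piglets (colour), with genes as rows and piglets as columns, grouped by diet with LPS left of saline. The fish oil LPS columns are mostly below the mean and the fish oil saline columns above it, with piglet 20 lowest throughout.

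The diet comparison, averaged over both maternal challenges, was not used to choose the genes and was tested. After Benjamini-Hochberg adjustment over all probe sets in limma, 0 of the 6 passed 0.05 for fish oil against control, as for 0% of all probe sets, and 0 of 6 had an unadjusted p under 0.05 (2.69% of all). The fish oil minus control differences ran from -0.16 ± 0.201 log2 for PARP14 to 0.16 ± 0.306 for GBP1. The 95% interval was -0.42 to 0.18 for PARP12 and -0.49 to 0.80 for GBP1.

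Microalgae against control gave 0 of 6 at the adjusted threshold (0% of all) and 0 of 6 unadjusted (1.65% of all). The differences lay between -0.08 ± 0.188 log2 for LGALS9 and 0.23 ± 0.347 for GBP1. Fish oil against microalgae gave 0 of 6 at the adjusted threshold (0% of all) and 0 of 6 unadjusted (2.85% of all). PARP12 had the largest difference there, -0.24 ± 0.153, with a 95% interval of -0.56 to 0.08.

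These averages joined opposite signs on fish oil. After maternal LPS, fish oil minus control was below 0 for all 6 genes, from -0.67 ± 0.284 log2 for PARP14 to -0.26 ± 0.213 for CMPK2. Of all probe sets 49.3% were above 0 there. After maternal saline it was above 0 for all 6 (51.2% of all), from 0.21 ± 0.270 for TRIM21 to 0.66 ± 0.433 for GBP1. Microalgae minus control kept no such order. It was above 0 for 2 of 6 genes after LPS (51.5% of all) and 4 of 6 after saline (49.2% of all). These single-challenge differences share their groups with the maternal LPS contrast and are given as a description.

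The dependence of the maternal LPS difference on the diet was expressed as an interaction, the LPS difference on fish oil minus that on control. It is built from the differences that picked the genes, and the larger fish oil difference was known when they were named, so the values of the 6 are a description with no test. The interaction was -1.02 ± 0.402 log2 for PARP14, -0.98 ± 0.332 for LGALS9 and -0.88 ± 0.287 for PARP12. It was -1.01 ± 0.613 for GBP1, -0.66 ± 0.381 for TRIM21 and -0.58 ± 0.301 for CMPK2. All 6 were below 0, where 49.7% of all probe sets were above 0. In the fit across all probe sets 0 of 20668 (0%) passed the adjusted threshold in this contrast.

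The corresponding interaction for microalgae is also built from the differences that picked the genes, so its values are a description with no test. They ran from -0.64 ± 0.376 log2 for LGALS9 to 0.29 ± 0.325 for PARP12. In the fit across all probe sets 0% passed the adjusted threshold in this contrast. With 2 LPS piglets on microalgae the intervals were wide, -1.95 to 0.97 for GBP1.

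The upstream part of the pathway was thinly measured. Of the listed ligands and receptors, IFNGR1, a subunit of the interferon gamma receptor, and IFNLR1, a subunit of the lambda receptor, were tested. The ligands IFNB1 (2.01 mean log2 signal), IFNG (1.89), IFNE (2.37) and IFNK (2.74) lay under the filter limit of 3.23. IFNGR1 differed by -1.17 log2 between LPS and saline on microalgae, 0.19 on fish oil and 0.09 on control.

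Of 14 interferon signalling genes, 10 were lower after maternal LPS over the 3 diets (48.2% of all probe sets) and 11 on fish oil (48.9% of all), with a fish oil median of -0.35 log2. On control 8 were lower (49.7% of all), with a median of -0.05. On microalgae 5 were lower (46.7% of all) and 9 higher, with a median of 0.07. IRF2, a repressor and activator of interferon-responsive promoters, differed by -0.91 log2 on fish oil, -0.60 on microalgae and -0.38 on control. JAK2, a kinase at the interferon gamma receptor, differed by -0.84, 0.12 and -0.55 in the same diets. USP18, which removes ISG15 from proteins and damps receptor signalling, differed by -1.36, 0.53 and -0.17. USP18 and JAK2 were thus higher after LPS on microalgae, as were most genes of the list and PARP12.

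Among the related lists, the other interferon-stimulated effectors had the fish oil median closest to that of the 6 genes. All 26 that were measured were lower on fish oil, with a median of -0.85 log2, 20 of 26 on microalgae (-0.28) and 20 of 26 on control (-0.15). Of all probe sets, 48.9%, 46.7% and 49.7% were lower in these diets. CXCL11, a chemokine that attracts activated T cells, differed by -1.82 log2 on fish oil, -1.69 on microalgae and -0.37 on control. IFIT2 and IFIT3, of a family that restrains the translation of viral RNA, differed by -2.11 and -1.58 on fish oil. Since these genes share the contrast that picked the 6, their counts too are a description.

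The lists of family members and partners had fish oil medians closer to 0, although single genes in them did not. Among 10 other PARP family members and partners the fish oil median was -0.14 log2. ZC3HAV1, the zinc finger antiviral protein, differed by -0.60 on fish oil, and DTX3L, the ubiquitin ligase partner of PARP9, by -0.86, whereas PARP2, a DNA repair enzyme, differed by -0.12 there and by -0.72 on microalgae. Among 5 other guanylate-binding and large GTPases GBP2, the only listed GBP gene with a probe set of its own, differed by -1.24 on fish oil and -0.04 on microalgae. ATL2 and ATL3, the atlastins of the endoplasmic reticulum, differed by -0.12 and 0.12 on fish oil.

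The 9 other antiviral TRIM genes and their partners had a fish oil median of 0.006 log2, with TRIM14, an adaptor of antiviral signalling, at -0.84, TRIM8 at 0.21 and TRIM27 at 0.09. The 10 other nucleotide kinases and pyrimidine enzymes had a fish oil median of 0.007 and a microalgae median of -0.37. RRM2B, a ribonucleotide reductase subunit, differed by -0.83 on microalgae and -0.05 on fish oil, AK3 by -0.51 and 0.06, and UMPS, which makes UMP, by -0.49 and -0.08. Among 6 other galectins and galectin-9 receptors LGALS8, which marks damaged endosomes, differed by -0.87 on fish oil, LGALS13 by 0.33 and CD44 by 0.01.

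**Figure D4:**
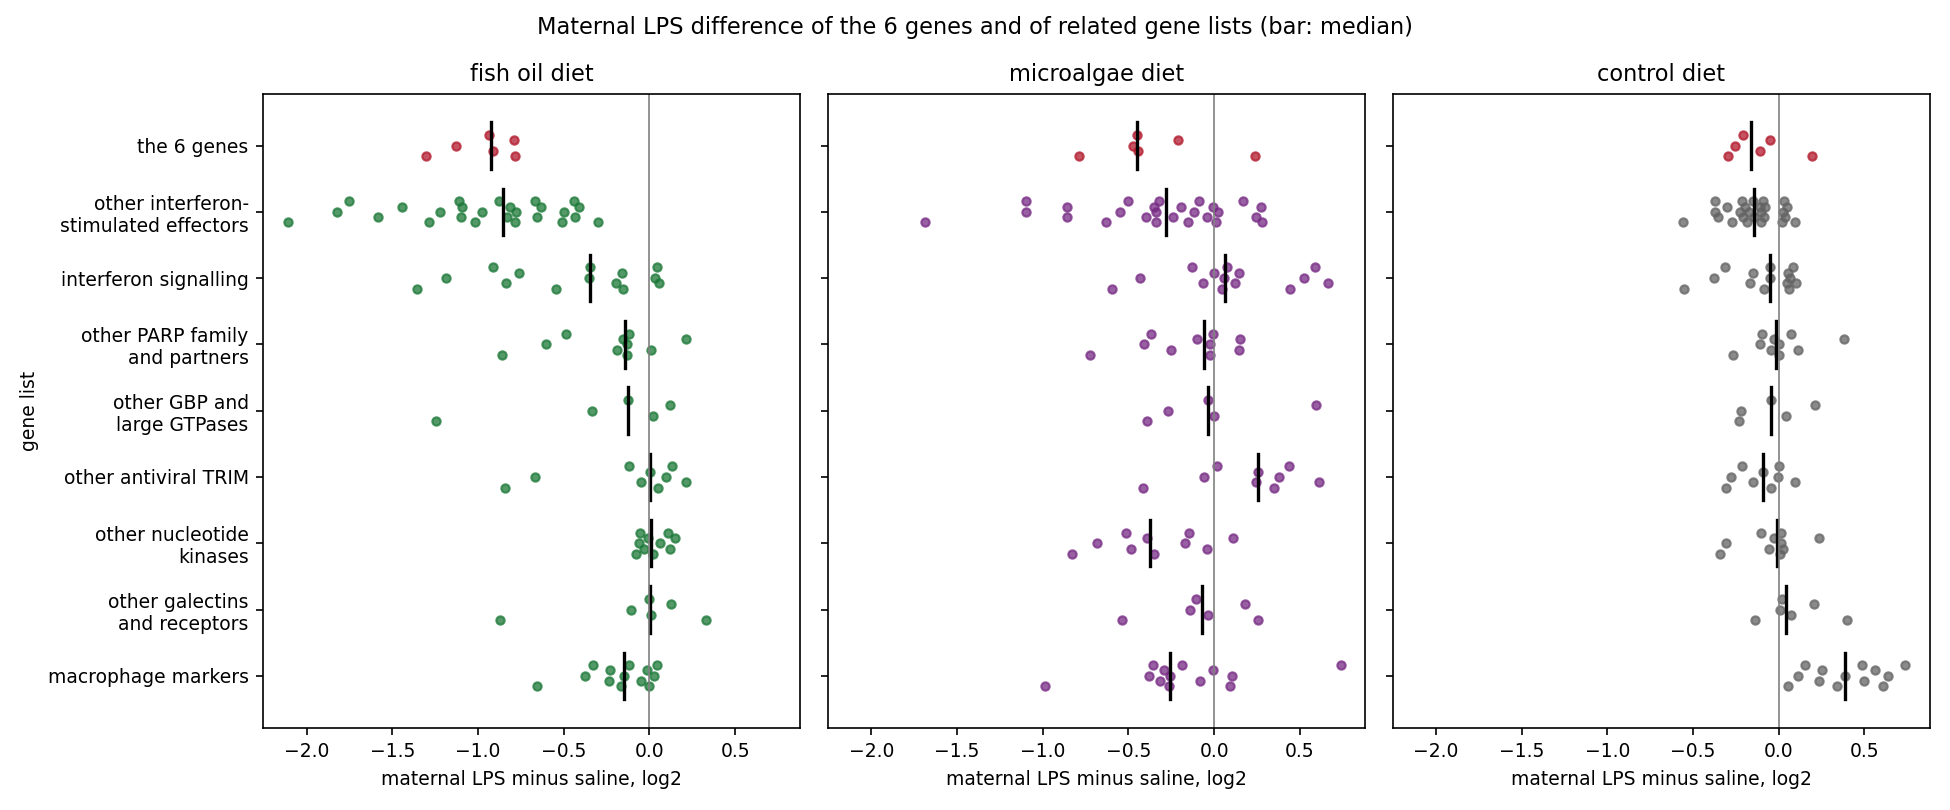
Maternal LPS minus saline on the log2 axis for the 6 genes, for 7 related gene lists and for macrophage markers (rows), in each diet (panels); each point is a gene and the bar is the median. The other interferon-stimulated effectors have a fish oil median of -0.85, while the antiviral TRIM genes, nucleotide kinases and galectins have medians near 0 there.

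In the diet contrasts 0 of the 82 pathway genes passed the adjusted threshold. Both interactions are built from the maternal LPS differences, which were known when the lists were chosen. Their values for the pathway genes are therefore a description with no test. The fish oil interaction was below 0 for 26 of 26 other interferon-stimulated effectors (median -0.70 log2) and 13 of 14 interferon signalling genes (-0.27). It was below 0 for 4 of the 9 TRIM genes and partners (0.05). Of all 20668 probe sets 49.7% were above 0. In the fit across all probe sets 0% passed the adjusted threshold in either interaction. For the fish oil interaction 2.64% of all probe sets had an unadjusted p under 0.05, and no such count is given for the 82. The share of all probe sets is no yardstick for a list chosen with these differences known. For the microalgae interaction the share was 5.41% of all probe sets, and again no count is given for the 82. For fish oil against control no pathway gene had an unadjusted p under 0.05, and each of the other diet contrasts had 1, below the shares of all probe sets given above: PARP2, higher with fish oil than with microalgae, and LGALS3, higher with microalgae than with control.

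Markers of other cell types moved with some of these values, and their part in the results was not tested. Of 13 macrophage markers 11 were lower after maternal LPS on fish oil (median -0.15 log2), 10 on microalgae (-0.26) and 0 on control (0.39). The summed linear macrophage signal on control ranged from 820 to 831 after LPS and from 556 to 684 after saline. There LGALS9 had a higher mean after LPS, while the other 5 genes had a lower one. On fish oil the summed macrophage signal ranged from 594 to 983 after LPS and from 577 to 1390 after saline. All 4 medullary markers were lower after LPS on fish oil (median -0.52), 3 on control (-0.19) and 2 on microalgae (0.19). All 9 fibroblast and capsule markers were higher on fish oil (0.29), but 8 were lower on control (-0.15) and 7 on microalgae (-0.31). Of all probe sets 48.9% were lower on fish oil, 49.7% on control and 46.7% on microalgae. In the control LPS group the SD between piglets was 1.02 log2 for the medullary mean and 1.07 for the fibroblast mean. The lymphocyte marker median was 0.02 on fish oil, 0.05 on microalgae and -0.02 on control, and that of neutrophil markers -0.03, -0.16 and 0.26.

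Piglets that deviated from their group mean in 1 of the 6 genes tended to do so in the others. Over 19 piglets, the Pearson correlation of the deviations ranged from 0.385 (LGALS9 with GBP1) to 0.896 (PARP14 with GBP1) over the 15 pairs, with a median of 0.634. Without piglets 20 and 22, which lay farthest out, the range was 0.168 to 0.804 and the median 0.555. The genes share arrays and glands, so these values describe the samples and carry no test.

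The deviations were also set against cell type markers. The correlation with the mean of the macrophage markers was 0.617 for CMPK2, 0.615 for LGALS9 and 0.604 for TRIM21, but 0.299 for PARP14. GBP1 was closest to the lymphocyte markers, with 0.59, and PARP12 to the plasmacytoid dendritic cell markers, with 0.638, a list that itself holds the interferon-regulated IRF7 and whose defining marker CLEC4C was not analysed here. With the interquartile range of the array the correlation was -0.572 for GBP1 and -0.412 for PARP14, against 0.087 for CMPK2.

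**Figure D5:**
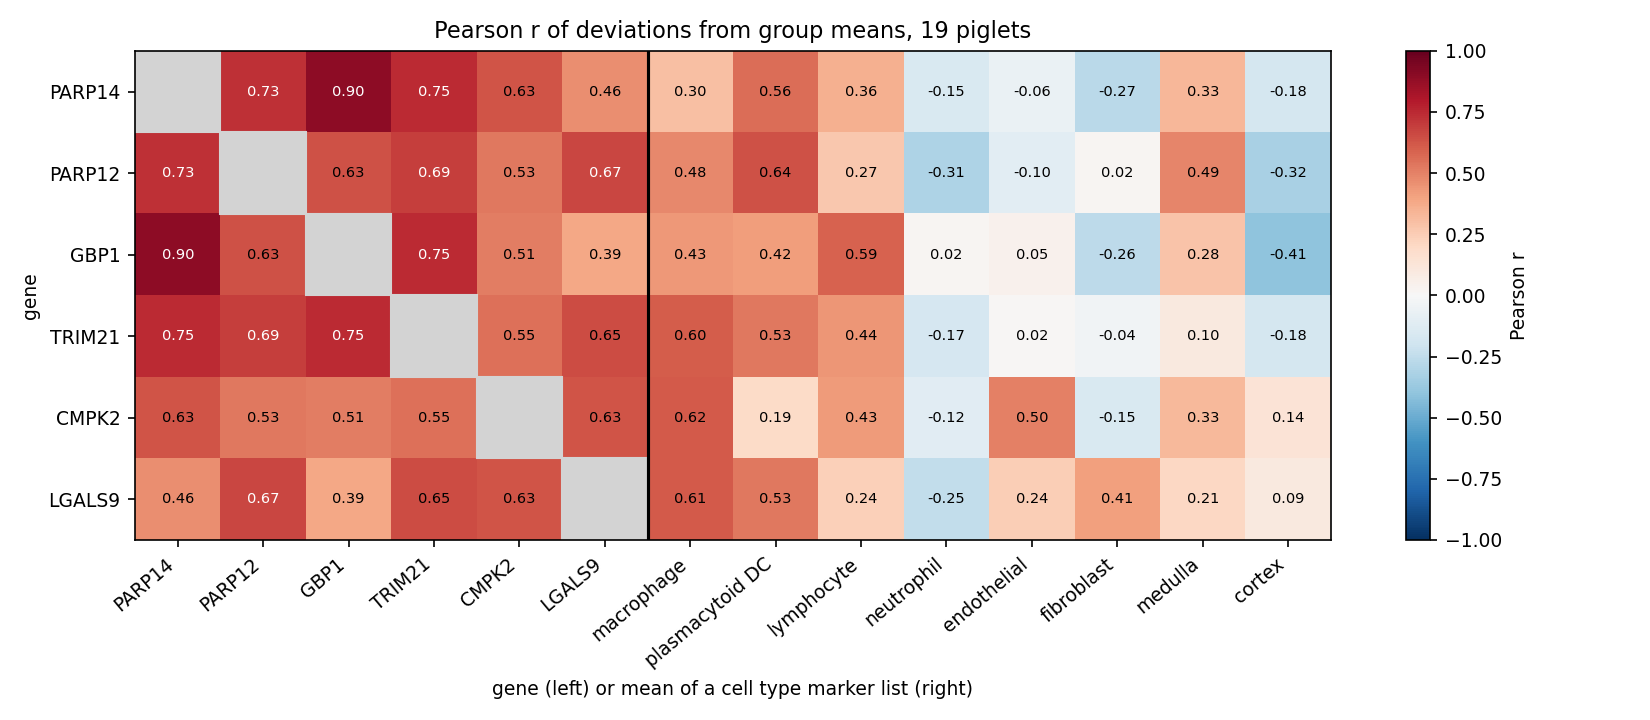
Pearson correlation (colour and printed value) of deviations from group means over 19 piglets, between the 6 genes (left block) and with the mean of each cell type marker list (right block). PARP14 and GBP1 form the closest pair, and CMPK2, LGALS9 and TRIM21 have the highest values with macrophage markers.

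Genes were ranked by how closely their deviations followed the mean standardised deviation of the 6 over the 19 piglets. NUB1, which promotes degradation of NEDD8-modified proteins, had a Pearson correlation of 0.927, and MX2, an antiviral GTPase, of 0.918. GVIN1 (0.897), the transcription factor STAT2 (0.887), LOC100151816 (0.879), the peptide transporter subunits TAP2 (0.877) and TAP1 (0.876) and the nucleic acid sensor ZBP1 (0.872) came next. Without piglets 20 and 22 the values were lower, 0.88 for NUB1 and 0.742 for TAP1. By single genes, STAT2 was closest to PARP14 (0.950), GVIN1 to GBP1 (0.953), ARID5A to TRIM21 (0.895), MRPL38 to CMPK2 (0.881), DHX34 to PARP12 (0.853) and the proteasome activator subunit PSME1 to LGALS9 (0.842). The next closest were LOC100151816 to PARP14 (0.912), TAP1 to GBP1 (0.942), PFKFB3 to TRIM21 (0.848), PEF1 to CMPK2 (0.869), NUB1 to PARP12 (0.842) and MS4A7, a macrophage marker, to LGALS9 (0.790).

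Chromosomal neighbours, in the gene order of the RefSeq annotation of the pig assembly Sscrofa11.1, showed 3 cases with another interferon-stimulated gene nearby. RSAD2, which encodes the antiviral enzyme viperin, lies next to CMPK2 and differed by -1.753 log2 between LPS and saline on fish oil, -0.549 on microalgae and -0.106 on control. GBP2 is the neighbour of GBP1, and DTX3L lies close to PARP14. The remaining measured neighbours differed by less on fish oil, from KDM7A (-0.392) beside PARP12 to RNF144A (0.142) beside RSAD2.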

How the data were processed

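Adrenal RNA of 19 piglets was measured on 1-colour Affymetrix arrays. Per the submitters' processing notes, the authors used Transcriptome Analysis Console 4.0. The deposited values are log2 signals (0.263 to 13.5, base 2 inferred from the range), used as deposited; their summarization and normalization are not given in the sources used here. Of 27558 probe sets, 13157 carry 1 gene symbol, 523 several and 13878 none. The 6890 with a mean under 3.23, the lowest 25%, were left out.

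The remaining 20668 probe sets were fitted in limma 3.58.1 under R 4.3.3 with a mean per group, leaving 13 residual degrees of freedom; the variance prior followed the intensity. P-values, two-sided, were adjusted across all fitted probe sets (Benjamini-Hochberg, threshold 0.05). SEs and 95% intervals are those of the model. The workflow was tested on simulated data. The number of arrays limits the precision.

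The 6 genes and the lists were chosen with earlier results of these data known. Each list gene was represented by its brightest probe set, and the 3 genes of a list with the largest maternal LPS difference over the diets were named, as were the 8 genes most like the 6, the 2 most like each, and the chromosomal neighbours. Alternatives were other filters, normalizations and variance models, array weights, array spread as a covariate, an additive model and leaving out each piglet.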

Additional observations from a re-analysis of the deposited data

Results flagged for a closer look

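For PARP14 after maternal LPS on fish oil, piglet 20 lay apart from the other 3 piglets: its gap to the nearest was 0.856 of the group's whole range, above Dixon's 95% critical value of 0.829. Of the 12 gene and group combinations with 4 piglets, this was the only one, and chance alone sets apart about 1 group in 20. Piglet 20 had the lowest signal of the 19 for each of the 6 genes. Without it the fish oil difference of PARP14 was -0.803 log2, against -1.13 with it.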

How the results depend on the processing

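Over the alternatives other than leaving out single piglets, the median maternal LPS difference of the 6 genes lay between -0.52 and -0.41 log2 over the diets, between -1.001 and -0.85 on fish oil and between -0.55 and -0.33 on microalgae. Leaving out 1 piglet at a time gave -0.54 to -0.40 over the diets, -1.03 to -0.74 on fish oil, -0.20 to -0.098 on control, and -0.66 (without piglet 7) to -0.10 (without piglet 23) on microalgae. In none of the settings that kept more than 1 piglet in each group did a gene of the 6 pass the adjusted threshold in a diet contrast. The interactions of the 6 are described with no test in these settings too. The median fish oil interaction lay between -1.04 (without piglets 6 and 24) and -0.632 (without piglet 20). The median microalgae interaction lay between -0.592 (without piglet 7) and 0.103 (without piglet 23). Piglets 6 and 24 had the arrays with the narrowest spread, and leaving both out was an alternative chosen after seeing the data. Without piglet 23 the median fish oil minus microalgae difference was -0.322, against -0.107 with it. Single values turned sign 9 times under the alternatives other than leaving out single piglets, and 37 times when 1 piglet was left out. None of these was a maternal LPS difference over the diets or on fish oil. On microalgae, PARP14 moved to -0.907 without piglet 7 and -0.0424 without piglet 23, and PARP12 to -0.105 and 0.579. The cause was not tested. No paired analysis was possible because the labels' piglet numbers are unique to each piglet. By Spearman correlation NUB1, GVIN1 and MX2 ranked 2, 3 and 4 among the genes most like the 6, and LOC100151816 ranked 54. A planned search of promoters for interferon-response motifs was not run, since no promoter sequences were used here.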
